A study of Sus scrofa with 6 samples.

Results

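Transcripts of the regulators of cardiac mitochondrial metabolism were examined in the left ventricular (LV) free wall of piglets with doxorubicin-induced heart failure. The regulators were a list of 10 genes, the nuclear receptors PPARA, PPARD, PPARG, RXRA, ESRRA and ESRRG, the coactivators PPARGC1A and PPARGC1B, and the transcription factors NRF1 and TFAM. A probe set, the group of short probes that reads 1 transcript on the array, was taken as a member where the platform annotation gave it a single gene symbol from this list. This rule found 13 probe sets of the 23999 tested, for 6 of the 10 genes: 2 for PPARA, 3 for PPARD, 1 each for PPARG and PPARGC1A, 2 for RXRA and 4 for TFAM. PPARGC1B, ESRRA, ESRRG and NRF1 had no probe set under their symbol and were not analysed here. The failing hearts came from 3 Large White piglets given a single intravenous dose of 2.0 mg/kg doxorubicin (Dox), an anthracycline used against cancer that is toxic to the heart, at 8 days of age. The non-failing hearts came from 3 Large White piglets injected with phosphate-buffered saline (PBS) at the same age. Tissue was taken 3 weeks after injection, at 28 days of age as labelled, and RNA of each piglet was hybridized to 1 Affymetrix Porcine Genome Array.

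The heart obtains most of its energy by oxidizing fatty acids in mitochondria, and this capacity is set in part by nuclear receptors that sense lipids. The peroxisome proliferator-activated receptors (PPARs), bound to DNA as dimers with the retinoid X receptor (RXR), switch on genes of fatty acid uptake and oxidation. PGC-1α, the protein of PPARGC1A, joins the PPARs, the estrogen-related receptors (ERRs) and nuclear respiratory factor 1 (NRF1) at their target genes, and NRF1 drives TFAM, the factor that packages and transcribes mitochondrial DNA.

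Signals were the deposited MAS5 intensities on a linear scale, set by the authors to a common trimmed mean of about 100 on every array. Differences between groups were read at the same probe set across arrays. Different probe sets were compared only by rank, by sum and against a floor, which does not give transcript amounts. The median signal over all probe sets was 13.5 to 15.6 on the Dox arrays and 16.8 to 17.8 on the PBS arrays. The 17 Tag probe sets, which have no target in the pig, served as a floor: a signal no brighter than the brightest Tag probe set of its own array (3.1 to 5.5 on the Dox arrays, 2.5 to 6.3 on the PBS arrays) counts here as being in the Tag range. The Dox replicate 1 array stood apart in the 3′ to 5′ signal ratio of the EF1A control probe sets, a measure of RNA integrity, at 11.6 against 4.27 and 4.3 on the other Dox arrays and 4.24 to 4.86 on the PBS arrays. Dox replicate 3 stood apart in its signals, with correlations of 0.864 to 0.923 with the other arrays across the 11999 brighter probe sets (log2 signal), against 0.906 to 0.979 between the other arrays. The 9 spiked-in hybridization control probe sets, which are mixed into every hybridization, had geometric means of 1004 to 1395 on the Dox arrays and 796 to 875 on the PBS arrays after the deposited scaling. The poly-A controls, another set of spike-ins, did not separate the groups. Their geometric means were 199.3 to 207.5 on the Dox arrays and 164.9 to 241.9 on the PBS arrays, and no scaling to them was run. Of the 10 cardiomyocyte markers listed, 9 were measured, and their summed signal was 49370 to 64060 in Dox-injected piglets and 40840 to 49400 in PBS-injected piglets. The 3 measured of 5 fibroblast markers summed to 846.3 to 1964 in Dox-injected piglets and 2129 to 2756 in PBS-injected piglets, and the 5 endothelial markers to 1097 to 1252 in Dox-injected piglets and 1290 to 1906 in PBS-injected piglets; the part of cell makeup in the values below was not tested. With 3 piglets a group the number of arrays limited the precision of every value below, and an exact two-sided permutation test could not fall below p = 0.1.

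None of the 13 regulator probe sets passed the threshold of an adjusted p of at most 0.05 (limma, Benjamini-Hochberg over all 23999 probe sets) with a fold of at least 2, and 0% of all probe sets did. The smallest adjusted p of a regulator was 0.598, for PPARG, and the smallest of any probe set was 0.428. None of the 13 reached a nominal (unadjusted) limma p of 0.05 in either direction, where 3.62% of all probe sets did so with a higher and 5.92% with a lower signal in Dox-injected piglets, and none reached it in the methods' t-test. The mean log2 signal was higher in Dox-injected piglets for 6 of the 13 and lower for 7. Their median log2 difference of -0.12 lay beside a median of -0.10 over all probe sets. PPARG was the 1 regulator probe set of 13 whose groups did not overlap, and 16.3% of all probe sets did not overlap. How far a signal could be read differed within the list: 6 of the 13 probe sets were above the Tag range on all 6 arrays, and 4 were within it on 4 or more arrays. The fitted differences of those 4 are shown for completeness, and no change in either direction is read from them. A missed threshold does not show that a transcript was the same in both groups, and the 95% confidence intervals given for each regulator state what the arrays leave possible.

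**Figure D1:**
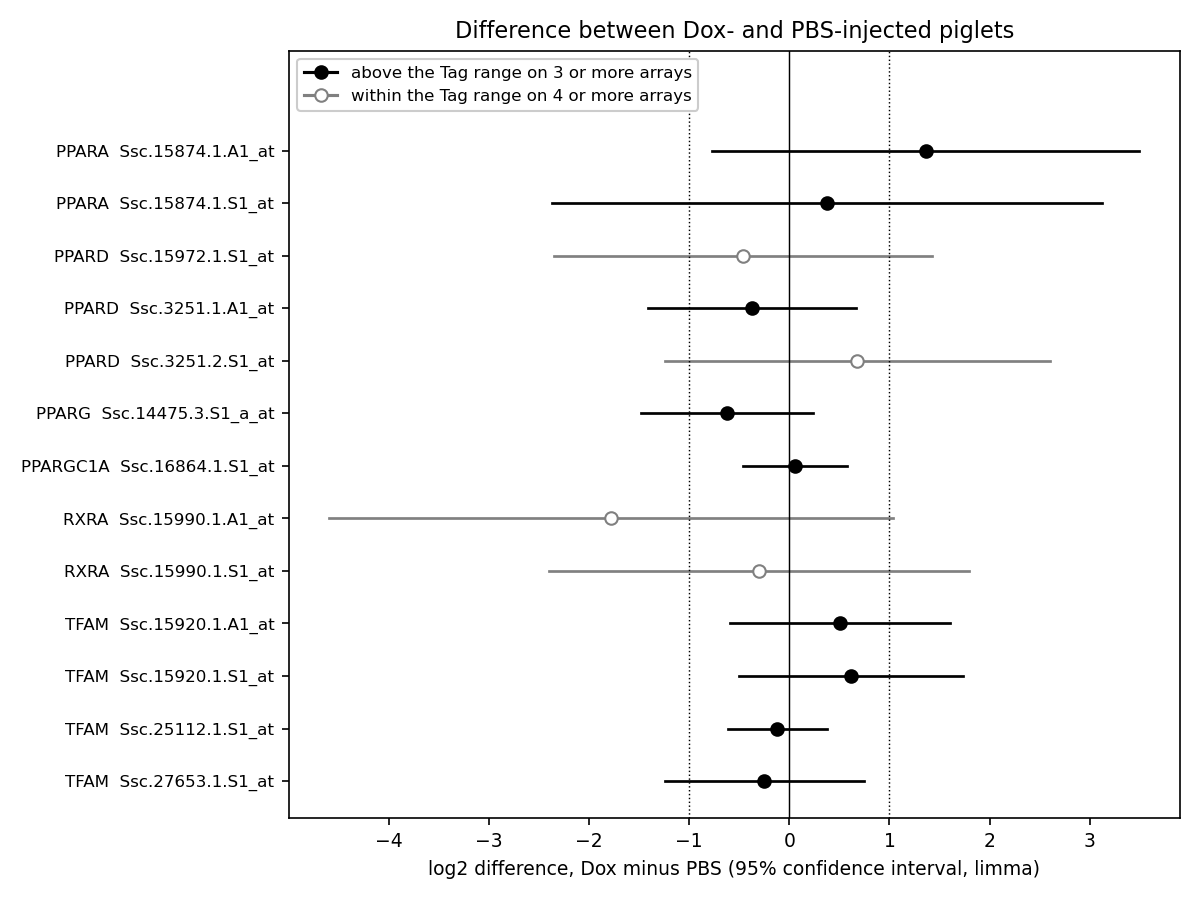
Difference in log2 signal, Dox minus PBS, for each of the 13 regulator probe sets, with the 95% confidence interval from limma (n = 3 piglets a group) and dotted lines at a 2-fold difference either way. Open symbols mark the 4 probe sets within the Tag range on 4 or more arrays, from which no change is read. Every interval includes 0, and those of PPARGC1A and of TFAM at Ssc.25112.1.S1_at are the narrowest and stay between the dotted lines.

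PPARGC1A encodes PGC-1α, the coactivator through which exercise, cold and fasting raise mitochondrial content, and was read by 1 probe set, Ssc.16864.1.S1_at. Its signal was 662.2, 684.5 and 1092.8 in Dox-injected piglets, against 872.4, 728.6 and 690.8 in PBS-injected piglets. Dox replicates 1 and 2 lay just below all PBS-injected piglets, and Dox replicate 3 lay above all of them. The signal averaged 813 ± 242 in Dox-injected piglets and 764 ± 95.8 in PBS-injected piglets (SD, n = 3 each). The ratio of geometric means was 1.04 with a 95% confidence interval of 0.725 to 1.49, or a log2 difference of 0.06 (SE 0.23, limma adjusted p = 0.94, exact permutation p = 1). This interval excludes a 2-fold difference in either direction, as did that of 0.542 to 1.05 when the arrays were scaled to the hybridization controls. The sign was not fixed, since the log2 difference was -0.18 without Dox replicate 3 and -0.04 after quantile normalization. The PPARGC1A signal was far above the Tag range on all 6 arrays and ranked at percentile 95.8 of all probe sets by mean log2 signal.

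PPARA encodes the PPAR isoform best known for driving fatty acid oxidation in heart and liver. Its 2 probe sets derive from the same GenBank sequence and are not independent readings. At Ssc.15874.1.A1_at the signal was 1.5, 6.8 and 17.3 in Dox-injected piglets, against 4.1, 1.1 and 2.3 in PBS-injected piglets. At Ssc.15874.1.S1_at it was 0.6, 7.6 and 23.2 in Dox-injected piglets, against 6.4, 2.3 and 3.3 in PBS-injected piglets. Both probe sets were brightest in Dox replicate 3 and next brightest in Dox replicate 2, while Dox replicate 1, PBS replicate 2 and PBS replicate 3 were within the Tag range at both. The SD of the Dox-injected piglets was close to their mean or above it, at 8.53 ± 8.04 against 2.5 ± 1.51 in PBS-injected piglets for the first and 10.5 ± 11.6 against 4 ± 2.14 for the second. The log2 differences were 1.36 (SE 0.93, 95% confidence interval -0.77 to 3.49, limma adjusted p = 0.63, exact permutation p = 0.3) and 0.37 (SE 1.2, -2.37 to 3.12, limma adjusted p = 0.928, exact permutation p = 0.9).

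The PPARA values turned on Dox replicate 1, the array with the high EF1A ratio and the lowest PPARA signal among Dox-injected piglets, and on Dox replicate 3, the array with the highest PPARA signal and the lowest correlations with the others. Without Dox replicate 1 the log2 differences were 2.31 (SE 0.76) at Ssc.15874.1.A1_at, with an unadjusted p of 0.0188 and an adjusted p of 0.229 in limma, and 1.86 (SE 0.70) at Ssc.15874.1.S1_at, with an unadjusted p of 0.0323 and an adjusted p of 0.271. Over all alternatives run the limma adjusted p ranged from 0.229 to 0.877 at Ssc.15874.1.A1_at and from 0.271 to 0.997 at Ssc.15874.1.S1_at. Without Dox replicate 3 the log2 differences were 0.55 and -0.77, and with 16 added to every signal before log2 they were 0.36 and 0.32. The part of RNA integrity, or of what sets Dox replicate 3 apart, in these values was not tested.

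PPARD encodes the PPAR isoform found in most tissues, which shares many target genes with PPARα in muscle. Of its 3 probe sets only Ssc.3251.1.A1_at was above the Tag range on all 6 arrays. There the signal was 7.2, 19.9 and 10 in Dox-injected piglets, against 12, 15.3 and 16.9 in PBS-injected piglets. Dox replicate 2 was the highest of the 6, and the other Dox-injected piglets were the lowest of the 6, so that the PBS-injected piglets lay inside the range of the Dox-injected piglets. The signal averaged 12.4 ± 6.67 in Dox-injected piglets and 14.7 ± 2.5 in PBS-injected piglets (SD, n = 3 each), a ratio of geometric means of 0.773 with a 95% confidence interval of 0.376 to 1.59 (limma adjusted p = 0.793, exact permutation p = 0.5).

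The other PPARD probe sets were at the floor of the array. Ssc.15972.1.S1_at read 2.1, 0.5 and 1.3 in Dox-injected piglets, against 3, 1.2 and 1 in PBS-injected piglets, and PBS replicate 1 alone was above the Tag range. Ssc.3251.2.S1_at read 5.4, 0.8 and 1.5 in Dox-injected piglets, against 0.9, 1.1 and 1.6 in PBS-injected piglets, within the Tag range on all 6 arrays. The limma adjusted p was 0.865 for the first and 0.796 for the second.

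PPARG encodes the PPAR isoform that governs fat cell formation and lipid storage. At its probe set Ssc.14475.3.S1_a_at the signal was 14, 8.5 and 15.4 in Dox-injected piglets, against 22.7, 17.6 and 16.7 in PBS-injected piglets. All Dox-injected piglets lay below all PBS-injected piglets, with 15.4 in Dox replicate 3 closest to 16.7 in PBS replicate 3, and all 6 arrays were above the Tag range. The signal averaged 12.6 ± 3.65 in Dox-injected piglets and 19 ± 3.24 in PBS-injected piglets (SD, n = 3 each). The ratio of geometric means was 0.65 with a 95% confidence interval of 0.358 to 1.18, and the log2 difference was -0.62 (SE 0.38, unadjusted p = 0.135 and adjusted p = 0.598 in limma, exact permutation p = 0.1, the smallest this design allows). Leaving out any 1 piglet kept the sign, with log2 differences between -0.79 and -0.36.

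Fat cells are rich in PPARG transcripts, and of the 6 adipocyte markers listed 4 were measured, with a summed signal of 1326 to 1477 in Dox-injected piglets and 1210 to 1368 in PBS-injected piglets. ADIPOQ, which encodes the fat cell hormone adiponectin, read 0.4, 0.4 and 4.3 in Dox-injected piglets, against 0.8, 0.3 and 0.4 in PBS-injected piglets, and was thus close to 0 on 5 of the arrays. LEP, which encodes leptin, read 7.8, 12.6 and 10.4 in Dox-injected piglets, against 24.5, 11.1 and 4.3 in PBS-injected piglets, and FABP4, a lipid carrier of fat and endothelial cells, read 1087.5, 912.1 and 738.7 in Dox-injected piglets, against 1014, 844.7 and 905.2 in PBS-injected piglets. LPL, the lipoprotein lipase of fat and muscle, read 381.4, 513 and 572.9 in Dox-injected piglets, against 328.9, 403.5 and 300.1 in PBS-injected piglets, with a log2 difference of 0.50 (SE 0.22, unadjusted p = 0.0494 and adjusted p = 0.523 in limma). The groups overlapped for all 4 markers, of which 2 had a log2 difference above 0 and 2 below, with a median of 0.235. The part of fat cell content in the PPARG values was not tested. In bulk tissue fewer cells of a type and less RNA per cell cannot be told apart.

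RXRA encodes RXRα, the shared dimer partner of the PPARs and of many other nuclear receptors. Its 2 probe sets derive from 1 GenBank sequence and lay at the floor of the array. Ssc.15990.1.A1_at read 0.1, 1.4 and 3.5 in Dox-injected piglets, against 2, 2.6 and 3.8 in PBS-injected piglets, and Dox replicate 3 alone was just above the Tag range. Ssc.15990.1.S1_at read 0.2, 0.4 and 0.4 in Dox-injected piglets, against 0.3, 0.4 and 0.5 in PBS-injected piglets. The first was within the Tag range on 5 of the 6 arrays and the second on all 6, and the limma adjusted p was 0.633 and 0.924. These probe sets gave no readable level of RXRA in either group.

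TFAM encodes the high-mobility-group protein that coats mitochondrial DNA and starts its transcription, and had 4 probe sets from 3 GenBank sequences. The brightest, Ssc.25112.1.S1_at, read 323.4, 295.3 and 257.5 in Dox-injected piglets, against 247.3, 368.6 and 345.9 in PBS-injected piglets. The Dox-injected piglets all lay inside the range of the PBS-injected piglets. The signal averaged 292 ± 33.1 in Dox-injected piglets and 321 ± 64.5 in PBS-injected piglets (SD, n = 3 each), a ratio of geometric means of 0.92 with a 95% confidence interval of 0.654 to 1.3 (log2 difference -0.12, SE 0.22, limma adjusted p = 0.868, exact permutation p = 0.6). With the deposited scaling the interval excludes a 2-fold difference either way, but on the scale of the hybridization controls it ran from 0.432 to 1.03 and did not.

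The remaining TFAM probe sets were dimmer and did not share a sign. Ssc.27653.1.S1_at read 18.1, 26.2 and 40.1 in Dox-injected piglets, against 45.3, 36.9 and 19.1 in PBS-injected piglets, and the groups covered nearly the same range. Ssc.15920.1.S1_at read 10.5, 12.7 and 31.1 in Dox-injected piglets, against 9.4, 14.1 and 8.7 in PBS-injected piglets, where Dox replicate 3 alone lay clearly above the rest. Ssc.15920.1.A1_at, from the same GenBank sequence, read 5.7, 5.5 and 9.1 in Dox-injected piglets, against 5, 5.9 and 3.4 in PBS-injected piglets, with PBS replicates 2 and 3 within the Tag range. The log2 differences were -0.25 (SE 0.43), 0.62 (SE 0.49) and 0.50 (SE 0.48) in that order, with limma adjusted p = 0.862, 0.676 and 0.725. The probe sets of TFAM thus gave differences of both signs, each with a 95% confidence interval that includes 0. As ratios the intervals of the dimmer probe sets were 0.424 to 1.67, 0.705 to 3.33 and 0.663 to 3.03 in the same order. Each of these allowed a 2-fold difference in 1 direction.

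**Figure D2:**
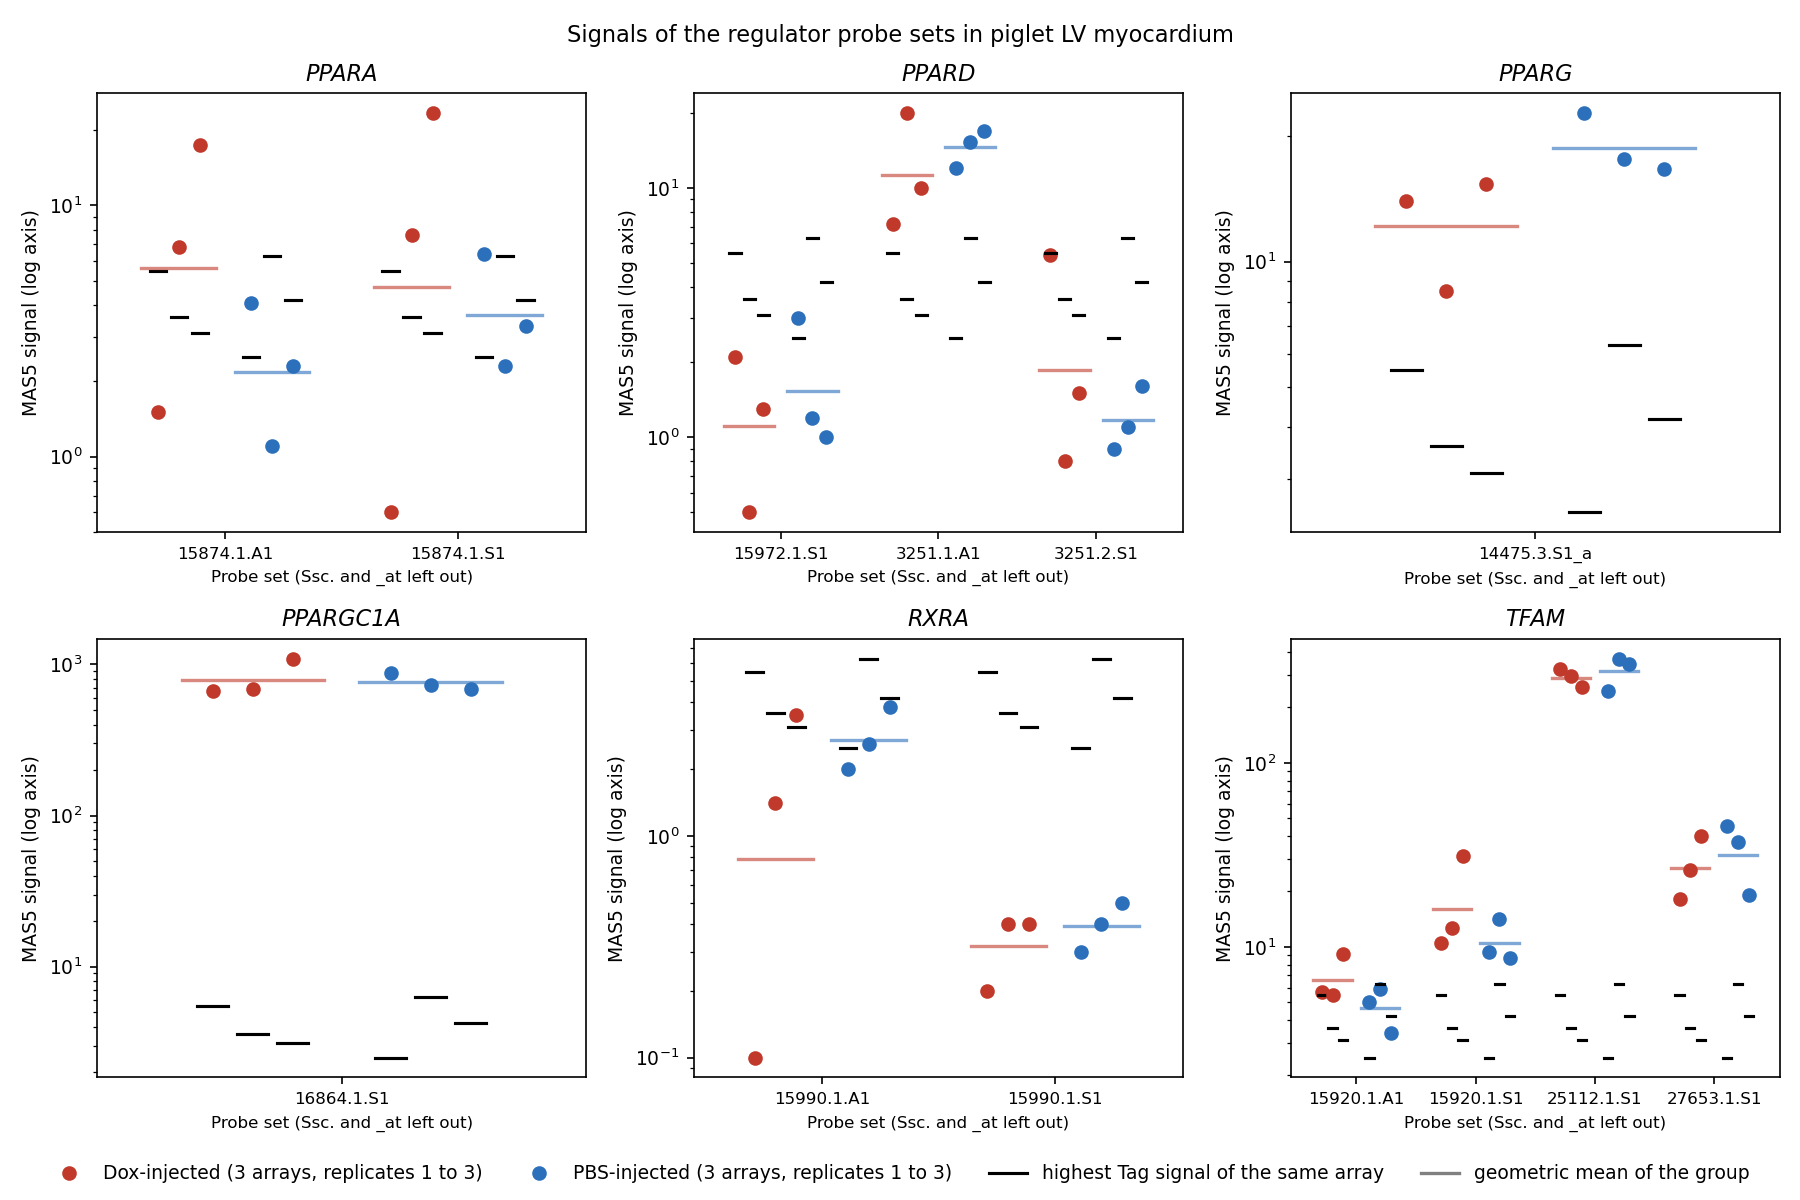
MAS5 signal (log axis) of every regulator probe set in each of the 3 Dox-injected (red) and 3 PBS-injected (blue) piglets, replicates 1 to 3 from left to right, with the geometric mean of each group as a coloured line and the brightest Tag signal of the same array as a black dash. PPARGC1A and TFAM at Ssc.25112.1.S1_at stand far above the black dashes, the RXRA points lie below them except in Dox replicate 3 at Ssc.15990.1.A1_at, and in PPARG the red points lie below the blue points.

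The piglets of a group differed among themselves in how bright the regulators were. Dox replicate 3 was the brightest of the 6 arrays in 5 of the 13 probe sets and the dimmest in 0, whereas it was the brightest in 23.9% and the dimmest in 29.7% of all probe sets. Those 5 were both PPARA probe sets, PPARGC1A and the TFAM pair Ssc.15920.1.A1_at and Ssc.15920.1.S1_at, so that 4 of them were 2 pairs reading the same sequence. Dox replicate 1 was the dimmest in 6 of the 13, where it was the dimmest in 13.7% of all probe sets. Those 6 included both RXRA probe sets, which read the same sequence at the floor of the array. The spread was widest at the dim receptors, with a standard error of 1.23 on the log2 scale at RXRA Ssc.15990.1.A1_at, and narrowest at TFAM Ssc.25112.1.S1_at with 0.22.

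The genes that control these regulators, bind them or answer to them were then described by lists. Each gene was read at its brightest probe set, and the same reading over all 6765 genes with a single symbol gave 4.92% with a nominal p of 0.05 or less and a higher signal in Dox-injected piglets, 6.61% with a lower signal and a median log2 difference of -0.07. No gene of any list passed the adjusted threshold, and the limma adjusted p was 0.521 for each gene named below unless another value is given. Unless marked, the genes named were among those with the smallest unadjusted p of their list and a mean log2 signal above the median of all probe sets.

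The list of upstream kinases, deacetylases and transcription factors holds the proteins that switch PGC-1α and the PPARs on or off. Of its 29 genes 22 were measured, of which 4 were higher and 2 lower in Dox-injected piglets at a nominal p of 0.05 or less, with a median log2 difference of 0.18. On the hybridization control scale the median was -0.29, beside -0.53 over all named genes, with 1 gene higher and 3 lower. The share of all named genes at that p on this scale is not given here. KLF15, a factor that works with PPARα on cardiac lipid genes, read 256.9, 516 and 334.9 in Dox-injected piglets, against 79.8, 163.6 and 187.5 in PBS-injected piglets. All Dox-injected piglets lay above all PBS-injected piglets, with a ratio of 2.63 (log2 difference 1.39, SE 0.37, unadjusted p = 0.00518). On the hybridization control scale the log2 difference of KLF15 was 0.93 (limma unadjusted p = 0.044). The other 3 higher genes, chosen after their values were seen, were subunits of AMP-activated protein kinase, the energy sensor that phosphorylates PGC-1α: PRKAA1 with a log2 difference of 1.07, PRKAG1 with 0.66 and PRKAA2 with 0.54. The hybridization control scale lowers every log2 difference by the same amount, so higher genes weaken and lower genes gain. On that scale all 3 subunits missed the nominal p, with PRKAA1 at 0.60, PRKAG1 at 0.20 and PRKAA2 at 0.07. The other 3 measured subunits, also chosen after their values were seen, did not reach it with the deposited scaling either. PRKAB1 stood at 0.10 (limma adjusted p = 0.89), PRKAB2 at 0.40 (limma adjusted p = 0.655) and PRKAG2 at 0.46 (limma adjusted p = 0.795). PRKAA2 read 921, 1486.7 and 1403.2 in Dox-injected piglets, against 758.8, 911 and 907.1 in PBS-injected piglets, with the groups just apart. The groups overlapped for PRKAA1. A second, dimmer probe set gave 0.54 for PRKAA1 (limma adjusted p = 0.74) and 0.57 for PRKAG1 (limma adjusted p = 0.609), both short of the nominal p. The lower genes were PPP3CA, the catalytic subunit of calcineurin (-0.74, SE 0.25), and AKT1, a kinase of insulin signalling (-0.56, SE 0.21). On the hybridization control scale they stood at -1.20 and -1.02.

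Among 12 measured of 26 coactivators and corepressors, 1 was higher and 0 lower at a nominal p of 0.05 or less, and the median log2 difference was 0.04. That gene was HDAC5, a histone deacetylase that holds MEF2 targets such as PPARGC1A silent, with 247.4, 266.7 and 365.6 in Dox-injected piglets, against 168.8, 212.7 and 215.5 in PBS-injected piglets (log2 difference 0.55, SE 0.22, 0.08 when the arrays were scaled to the hybridization controls). Among 16 measured of 27 partner receptors and transcription factors, 1 was higher and 2 were lower, with a median of -0.08. RXRG, the RXR isoform of muscle, read 57.8, 15.2 and 12.9 in Dox-injected piglets, against 46.3, 95.9 and 69.1 in PBS-injected piglets, so that Dox replicate 1 lay within the PBS range (log2 difference -1.59, SE 0.57). MYC, a growth factor-induced regulator, read 141.6, 336.2 and 1044.5 in Dox-injected piglets, against 62.7, 143.4 and 81.2 in PBS-injected piglets (log2 difference 2.03, SE 0.65), with Dox replicate 3 far above the rest. On the hybridization control scale the log2 difference of MYC was 1.56 (limma unadjusted p = 0.0219). NR3C1, the glucocorticoid receptor, read 14.4, 25.2 and 15.1 in Dox-injected piglets, against 39.4, 34.7 and 41.3 in PBS-injected piglets (log2 difference -1.12, SE 0.33). Its other 3 probe sets were dimmer and gave 1.25, -0.56 and -0.18. The probe set at 1.25 was within the Tag range on 4 arrays, so no change is read from it, and that at -0.56 on 3 arrays.

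Of 39 PPAR target genes 30 were measured, 2 higher and 2 lower at a nominal p of 0.05 or less, with 14 log2 differences above 0, 16 below and a median of -0.03. PNPLA2, the lipase that releases fatty acids from stored fat, read 841.3, 994.6 and 1147.8 in Dox-injected piglets, against 332.4, 605.3 and 628.9 in PBS-injected piglets (ratio 1.97, log2 difference 0.97, SE 0.27, unadjusted p = 0.00597). CPT1A, a carnitine palmitoyltransferase that passes fatty acids into mitochondria, read 160.3, 71 and 53.3 in Dox-injected piglets, against 211.4, 259.6 and 157.1 in PBS-injected piglets (log2 difference -1.28, SE 0.40). The others were LPL, chosen after its values were seen (0.50, limma adjusted p = 0.523, and 0.03 on the hybridization control scale), and APOA1, an apolipoprotein (-0.50, SE 0.19). PDK4, an inhibitor of glucose oxidation and a sensitive PPAR target, was chosen after its values were seen and read 2017.3, 244.6 and 1529.7 in Dox-injected piglets, against 40.1, 2465.9 and 1516.7 in PBS-injected piglets. The groups overlapped over most of this range (log2 difference 0.78, adjusted p = 0.873).

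Of 43 ERR and NRF1 target genes of the citric acid cycle and respiratory chain 31 were measured. Of these 1 was higher and 0 were lower at a nominal p of 0.05 or less, and 20 log2 differences were above 0 and 11 below, with a median of 0.11 that changed sign to -0.10 after quantile normalization and -0.35 after scaling to the hybridization controls. The counts at that nominal p changed as well, to 0 higher and 4 lower after quantile normalization, 0 and 6 after cyclic loess normalization and 0 and 12 on the hybridization control scale. The median over all named genes was -0.53 on that last scale. The shares of all named genes under these scalings are not given here, so the counts are not read as changes of the list. COX5B, a subunit of cytochrome c oxidase, averaged 6860 ± 796 in Dox-injected piglets and 5380 ± 508 in PBS-injected piglets (SD, n = 3 each), a log2 difference of 0.35 (SE 0.15, adjusted p = 0.522) that was 0.01 after quantile normalization and -0.12 on the hybridization control scale. Of the 9 cardiomyocyte markers 8 were above 0 too, with MYH7, the slow myosin heavy chain, at 0.37, 0.03 after quantile normalization and -0.10 on the hybridization control scale, and their part in the list's values was not tested.

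Of 24 genes of mitochondrial DNA transcription and maintenance, the machinery around TFAM, 13 were measured, with 0 higher and 0 lower at a nominal p of 0.05 or less and a median log2 difference of -0.19. The sign of that median was not fixed: it was 0.22 without Dox replicate 3, 0.05 without PBS replicate 1 and 0.0034 after cyclic loess normalization. The smallest unadjusted p was that of TEFM, the mitochondrial transcription elongation factor (-0.61, SE 0.29, unadjusted p = 0.0651, adjusted p = 0.537). Of 25 genes of mitochondrial fusion, fission, import and mitophagy 14 were measured, with 2 higher and 2 lower and a median of -0.05. HSPD1, the chaperonin of the mitochondrial matrix, read 1068.4, 924.4 and 756.1 in Dox-injected piglets, against 1565.2, 1484 and 1372.1 in PBS-injected piglets (log2 difference -0.70, SE 0.18, unadjusted p = 0.00378). DNM1L, the dynamin that divides mitochondria, read 468.7, 271.5 and 330.4 in Dox-injected piglets, against 779.9, 634.2 and 488.8 in PBS-injected piglets (-0.84, SE 0.26). Its other probe set gave -1.66 near the floor, at 3.7 to 3.9 in Dox-injected piglets and 10.3 to 13.7 in PBS-injected piglets. There 1 Dox array was within the Tag range. The higher genes were TOMM20, a receptor for imported proteins (0.52, SE 0.20), and FIS1, an outer membrane fission protein chosen after its values were seen (0.61, SE 0.25). On the hybridization control scale TOMM20 stood at 0.06 and FIS1 at 0.14, both short of the nominal p, and FIS1 also missed it after quantile normalization. For HSPD1 and DNM1L all Dox-injected piglets lay below all PBS-injected piglets. Since the hybridization control scale lowers every difference alike, these 2 genes stood further from 0 on it, at -1.16 and -1.31.

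**Figure D3:**
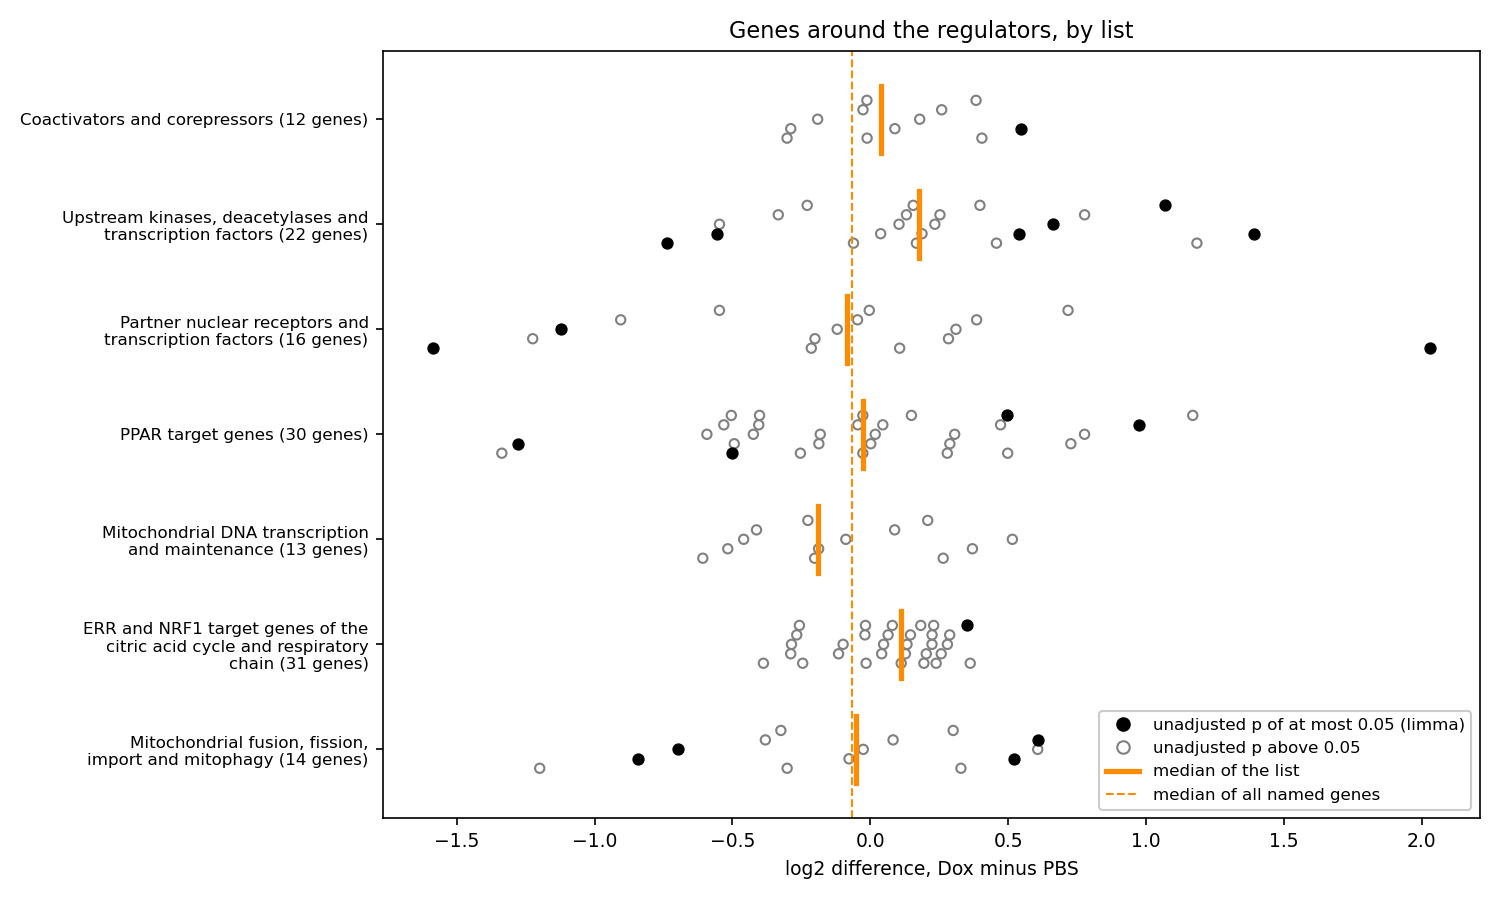
Difference in log2 signal, Dox minus PBS, of each measured gene in the lists around the regulators (1 point a gene, filled where the unadjusted limma p was at most 0.05), with the median of each list as a solid bar and that of all named genes as a dashed line. The list medians lie between -0.19 and 0.18, beside -0.07 for all named genes, and filled points lie on both sides of 0 in the lists of upstream genes, partner receptors, PPAR targets and fusion and import.

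These values depended on how the arrays were scaled. The median log2 difference over all probe sets was -0.10 with the deposited scaling, near 0 after quantile or cyclic loess normalization and -0.57 when the arrays were scaled to the hybridization controls, which moves every probe set by the same amount. On that last scale PPARG stood at -1.09 (SE 0.41, unadjusted p = 0.0252, adjusted p = 0.219, the lowest of a range of 0.219 to 0.832 over the alternatives run), PPARGC1A at -0.41 and TFAM Ssc.25112.1.S1_at at -0.59. Quantile normalization moved single probe sets in different directions, with PPARG at -0.36, TFAM Ssc.25112.1.S1_at at -0.07 and PPARGC1A at -0.04. On the hybridization control scale the PPAR target list held 0 higher and 9 lower genes at a nominal p of 0.05 or less, and the list around TFAM 0 higher and 3 lower. The median over all named genes was -0.53 on that scale, and their share at that p is not given here. These counts are thus not read as changes of the lists.

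**Figure D4:**
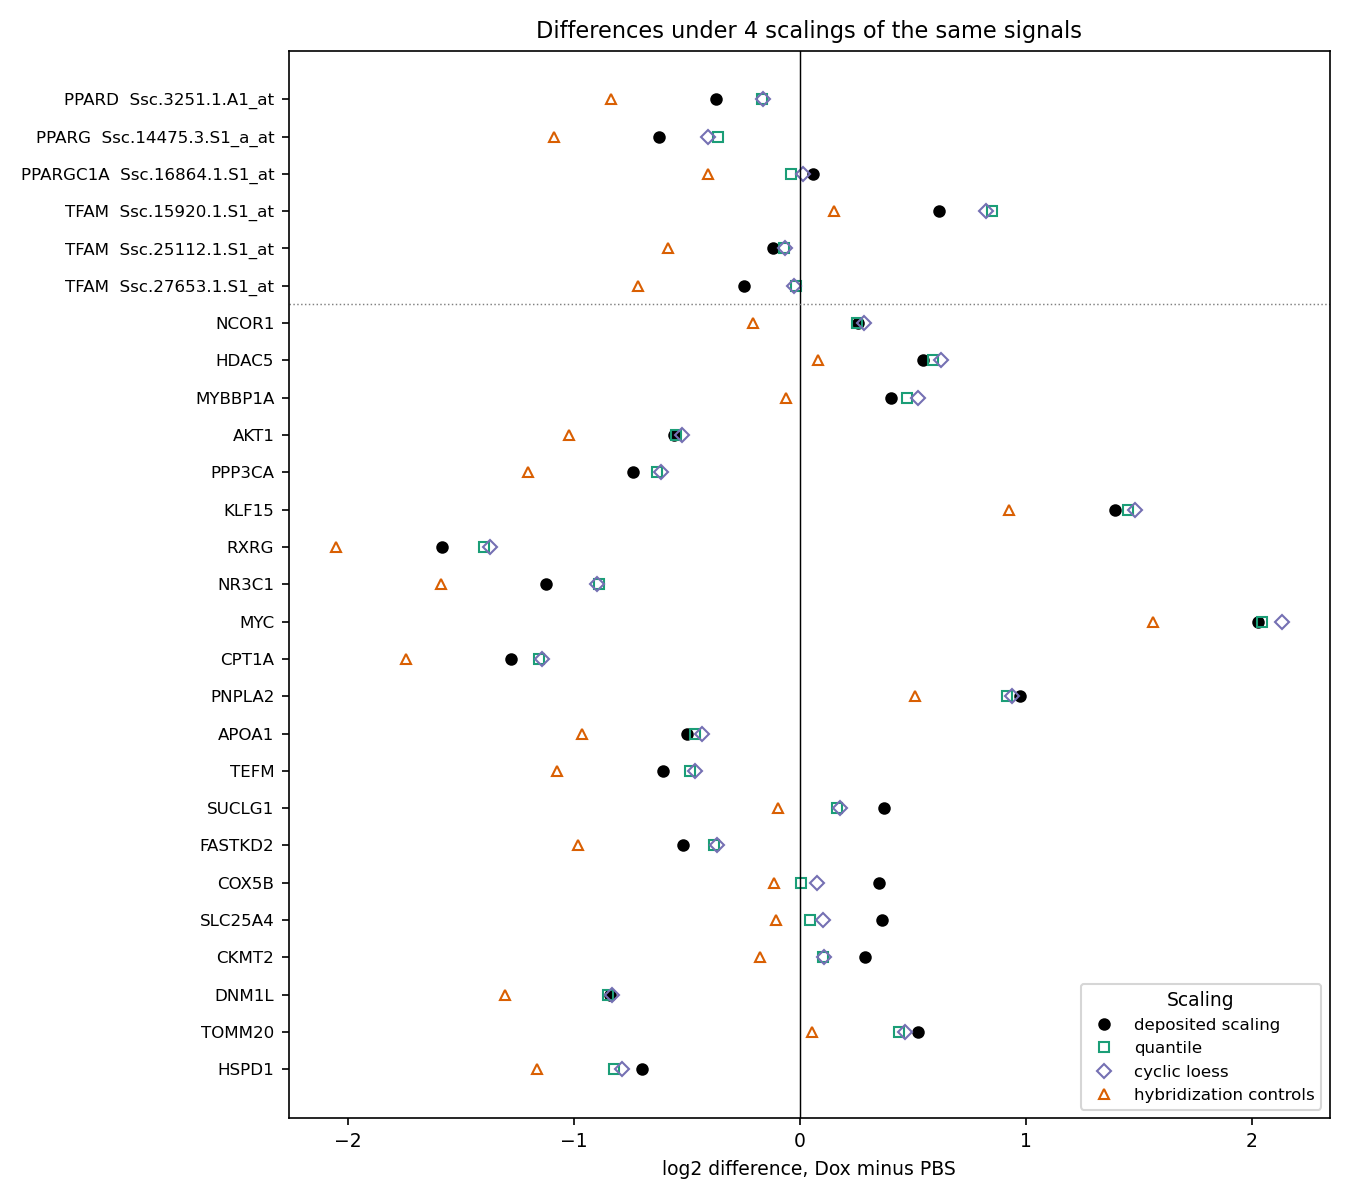
Difference in log2 signal, Dox minus PBS, of the 6 regulator probe sets above the Tag range on all arrays (above the dotted line) and of the list genes named by rule (below it), under the deposited scaling, quantile normalization, cyclic loess normalization and scaling to the hybridization controls. By construction the hybridization control scale lies to the left of the deposited one by the same amount at every gene. PPARGC1A, 0.06 with the deposited scaling, falls on both sides of 0.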

How the data were processed

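LV RNA of 6 piglets was measured on 6 Affymetrix Porcine Genome Arrays. The deposited values are MAS5 signal intensities, computed by the authors in GCOS 1.4 and scaled on each array, with no separate depth. The methods of the study give a dose range and ages that differ slightly from the labels. Signals of 0 (311 probe sets on any array) were raised to 0.1 before log2. Of 24123 probe sets, 124 array controls were left out and 23999 fitted with limma 3.58.1 (lmFit, eBayes with trend) in R 4.3.3 over all 6 arrays, Dox minus PBS. P-values were adjusted by Benjamini-Hochberg over all 23999, and the fit was tested on simulated data. Gene symbols come from the platform annotation deposited in GEO. Replicates are single piglets. The Tag range was set with the values known.

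The regulators and the gene lists were chosen with earlier results of these data known. All regulator probe sets were named; a list gene was named where it was among the 3 smallest unadjusted p-values of its list with a mean log2 signal above the median of all probe sets, and the text gives a selection of these. Same-numbered Dox and PBS arrays deviated together with correlations of -0.05, 0.12 and -0.15, so the numbers were not taken to pair piglets. The alternatives tried were normalization by quantiles or by cyclic loess, an offset of 16, other probe set and filter choices, a replicate block, each array left out and, added after seeing the data, scaling to the hybridization controls. Coordinates and sequences were not used here.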

Additional observations from a re-analysis of the deposited data

How the results depend on the processing

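No regulator passed the threshold under any alternative run, and over these the adjusted p of a regulator ranged from 0.219 to 0.998. The number of regulators at a nominal p of 0.05 or less, 0 with the deposited scaling, ranged from 0 to 2 when 1 array was left out: 2 without Dox replicate 1 (both PPARA probe sets, which read the same sequence) and 1 without Dox replicate 3 (RXRA Ssc.15990.1.A1_at, within the Tag range on 5 arrays, from which no change is read). Scaling to the hybridization controls gave 1 (PPARG). The shares of all probe sets at that nominal p in these fits are not given here, so the counts are not read as a result about the regulators. The number of all probe sets past the threshold ranged from 0 to 14 when 1 array was left out, the 14 arising without Dox replicate 1. The cause was not tested. Of 176 regulator values under alternatives, 162 kept their direction and side of the threshold and 14 changed sign. In this balanced design a replicate block cannot change a log2 difference, and leaving out dim probe sets does not change those kept. The 176 include such values, so the 162 overstates how stable the signs were. On leaving out 1 array the log2 difference ranged from -0.77 to 1.86 at PPARA Ssc.15874.1.S1_at, from -0.93 to 0.11 at PPARD Ssc.15972.1.S1_at, from -0.0897 to 1.29 at PPARD Ssc.3251.2.S1_at, from -0.18 to 0.19 at PPARGC1A, from -0.49 to 0.031 at RXRA Ssc.15990.1.S1_at and from -0.62 to 0.031 at TFAM Ssc.27653.1.S1_at. At the RXRA probe set and both PPARD probe sets among these, mostly within the Tag range, no direction is read. Scaling to the hybridization controls gave -0.092 at PPARA Ssc.15874.1.S1_at and -0.41 at PPARGC1A, quantile normalization gave -0.041 at PPARGC1A, and the mean over all TFAM probe sets was 0.19 against -0.12 at its brightest. With the replicate block 0 regulators and 0 of all probe sets passed the threshold, 0 regulators reached that nominal p, and PPARGC1A stood at -0.041 with quantile normalization and the block. Of 98 list medians 84 moved by less than the spread between piglets, counting the fits with a replicate block, which repeat the medians without it. Dim signals, within the Tag range on 4 or more arrays for 4 of the 13 probe sets, limit what can be read of PPARD and RXRA. The same limit holds for PPARA, whose 2 probe sets were each within the Tag range on 3 arrays.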
